A study of Homo sapiens with 12 samples.

Results

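Genes of the insulin-like growth factor (IGF) system, 10 in number, were followed in docetaxel-resistant prostate cancer cells. They are the receptors IGF1R, INSR and IGF2R, the adaptors IRS1 and IRS2, and the binding proteins IGFBP2, IGFBP3, IGFBP4, IGFBP6 and IGFBP7. They were taken by gene symbol alone, and all 10 of 10 were found among the 38611 genes listed. DU145-R and PC3-R are sublines of the prostate cancer lines DU145 and PC3, which were established from human metastases, and had been passaged in stepwise doubled docetaxel, a taxane that stabilises microtubules. Selection of DU145-R began at 10 and ended at a half-maximal inhibitory concentration of 1800, and that of PC3-R began at 0.5 and ended at 15, in the unit nm/ml as the submitters wrote it. The references were parental DU145 and parental PC3, labelled control. Each of the 4 groups had 3 poly(A)-selected RNA-seq libraries of 62513103 to 72530254 counted reads. Each resistant subline is a single selected line, and the labels do not say whether docetaxel was present at harvest. Nothing in them says that the 3 libraries of a group came from separate cultures, so each p-value measures the spread between these libraries, which may be technical.

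IGF1 and IGF2 signal through IGF1R and the insulin receptor INSR, which are tyrosine kinases that phosphorylate the docking proteins IRS1 and IRS2 and so recruit PI3-kinase and start AKT and mTOR signalling. IGF2R, also the cation-independent mannose 6-phosphate receptor, has no kinase and carries IGF2 to lysosomes. The IGFBPs are secreted proteins that hold IGFs away from the receptors until proteases cleave them. In prostate cancer this system is known as a source of growth and survival signals.

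The promoters of 5 members are shown as examples of each pattern of calls: IGFBP4 was higher and IGF2R lower in both resistant sublines, IRS1 and IGFBP6 moved in opposite directions in the 2 lines, and IRS2 was lower in DU145-R. RefSeq tables of build GRCh38.p14 held a promoter for 9 of 10 members, spanning 250 bases before to 50 bases after the transcription start, and IGFBP7 was not among them. Sequences run 5′ to 3′ on the gene's strand, and capitals mark matches, on either strand, to the motifs searched. The GC box was searched as GGGCGG, while the E-box motif was spelled CACGTG and the TATA box motif TATAAA. The letters looked for as the forkhead motif were GTAAACA, those looked for as the AP-1 motif were TGACTCA, and those looked for as the cAMP response element were TGACGTCA. Some GC box matches overlap each other, so that a capital run can hold more than 1.
IGFBP4 (chr17:40443200-40443499, plus strand): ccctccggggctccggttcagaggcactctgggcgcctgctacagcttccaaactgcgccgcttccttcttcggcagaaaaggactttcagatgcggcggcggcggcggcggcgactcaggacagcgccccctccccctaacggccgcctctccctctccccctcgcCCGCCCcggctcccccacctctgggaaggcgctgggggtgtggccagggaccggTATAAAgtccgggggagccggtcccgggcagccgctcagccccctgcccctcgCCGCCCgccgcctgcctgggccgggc
IGFBP6 (chr12:53097417-53097716, plus strand): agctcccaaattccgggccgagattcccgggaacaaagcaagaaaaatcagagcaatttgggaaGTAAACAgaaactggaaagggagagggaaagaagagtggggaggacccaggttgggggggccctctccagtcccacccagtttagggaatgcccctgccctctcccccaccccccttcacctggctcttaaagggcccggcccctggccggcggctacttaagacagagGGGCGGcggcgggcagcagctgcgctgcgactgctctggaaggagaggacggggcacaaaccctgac
IGF2R (chr6:159968832-159969131, plus strand): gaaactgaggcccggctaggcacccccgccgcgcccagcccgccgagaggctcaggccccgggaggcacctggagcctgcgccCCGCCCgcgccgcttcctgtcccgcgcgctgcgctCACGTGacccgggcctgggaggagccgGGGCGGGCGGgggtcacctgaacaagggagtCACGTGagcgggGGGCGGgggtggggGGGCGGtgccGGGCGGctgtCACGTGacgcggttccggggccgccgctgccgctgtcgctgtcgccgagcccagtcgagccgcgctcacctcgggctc
IRS1 (chr2:226799771-226800070, minus strand): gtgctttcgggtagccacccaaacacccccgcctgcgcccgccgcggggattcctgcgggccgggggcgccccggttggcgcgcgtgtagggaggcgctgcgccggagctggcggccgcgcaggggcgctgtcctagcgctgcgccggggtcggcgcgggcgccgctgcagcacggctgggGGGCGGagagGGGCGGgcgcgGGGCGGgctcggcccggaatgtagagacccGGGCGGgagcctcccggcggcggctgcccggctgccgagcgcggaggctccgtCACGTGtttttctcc
IRS2 (chr13:109786534-109786833, minus strand): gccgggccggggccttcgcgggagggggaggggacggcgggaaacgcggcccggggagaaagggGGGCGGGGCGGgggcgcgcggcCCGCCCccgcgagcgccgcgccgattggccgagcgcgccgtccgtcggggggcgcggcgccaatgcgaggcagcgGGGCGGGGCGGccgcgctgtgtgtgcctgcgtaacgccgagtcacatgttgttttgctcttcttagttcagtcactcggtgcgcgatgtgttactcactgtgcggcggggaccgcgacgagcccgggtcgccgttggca
The IGFBP4 window held 2 GC boxes and a TATA box 29 bases before the start, and that of IGFBP6 held 1 GC box and a forkhead match 186 bases before it. In the IGF2R window there were 6 GC boxes and 3 E-boxes, in that of IRS1 there were 4 GC boxes and 1 E-box, and in that of IRS2 there were 5 GC boxes. None of the 5 held the AP-1 or cAMP response element letters. Of 35116 RefSeq promoters of the same length, 45% held a GC box, 7.26% an E-box, 11.5% a TATA box, 3.42% the forkhead letters, 4.95% AP-1 and 1.85% the cAMP response element. Bases G and C made up 74% of the IGFBP4 window, 61.7% of that of IGFBP6, 78.7% of that of IGF2R, 79.3% of that of IRS1 and 75.7% of that of IRS2, against a median of 58.7% over all promoters. The RefSeq start of IRS1 lay 61 bases, and that of IGFBP6 lay 231 bases, from the gene start in the deposited files, and those of the other 3 coincided. These matches describe the letters only.

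All members but IGFBP7, 9 of 10, differed between DU145-R and parental DU145, where 39.6% of the 24128 genes tested did (edgeR quasi-likelihood test, two-sided, Benjamini-Hochberg adjusted p under 0.05). IGF1R, INSR, IRS1, IGFBP2 and IGFBP4 were higher (5 members, against 18.9% of all genes), and IGF2R, IRS2, IGFBP3 and IGFBP6 were lower (4 members, against 20.7%). In PC3-R, 7 members differed from parental PC3, where 44.0% of all genes did. IGFBP3, IGFBP4 and IGFBP6 were higher (3 members, against 22.4%), and IGF1R, IGF2R, INSR and IRS1 were lower (4 members, against 21.6%). The median log2 difference of the 10 members was -0.08 in DU145 and -0.23 in PC3, against 0 over all genes in each line. The fitted value of IGFBP2 in PC3, where the parental libraries had no count, lies above that median and does not set it.

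IGFBP4 and IGF2R were called in the same direction in both lines, as were 13.4% of all genes. IGF1R, INSR, IRS1, IGFBP3 and IGFBP6 were called in opposite directions, as were 12.1% of all genes. In counts scaled to library size (CPM), the libraries of the resistant and parental groups did not overlap for 10 of 10 members in DU145 (51.2% of all genes) and for 8 of 10 in PC3 (54.4%). IGFBP7 was among the 8 only narrowly, with 0.3976 CPM in its highest PC3-R library and 0.3991 CPM in its lowest parental one. Those libraries held 28 and 27 counts of it, so its unscaled counts overlapped. Between the lines, also in CPM, the libraries did not overlap for 9 of 10 members among resistant sublines (66.5% of all genes) and for 9 of 10 among parents (67.7%). IGF2R was among the 9 of the resistant sublines, with 323 to 341 CPM in PC3-R and 311 to 320.4 CPM in DU145-R, although its FPKM, fragments scaled to a length per gene and to library size, overlapped.

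**Figure D1:**
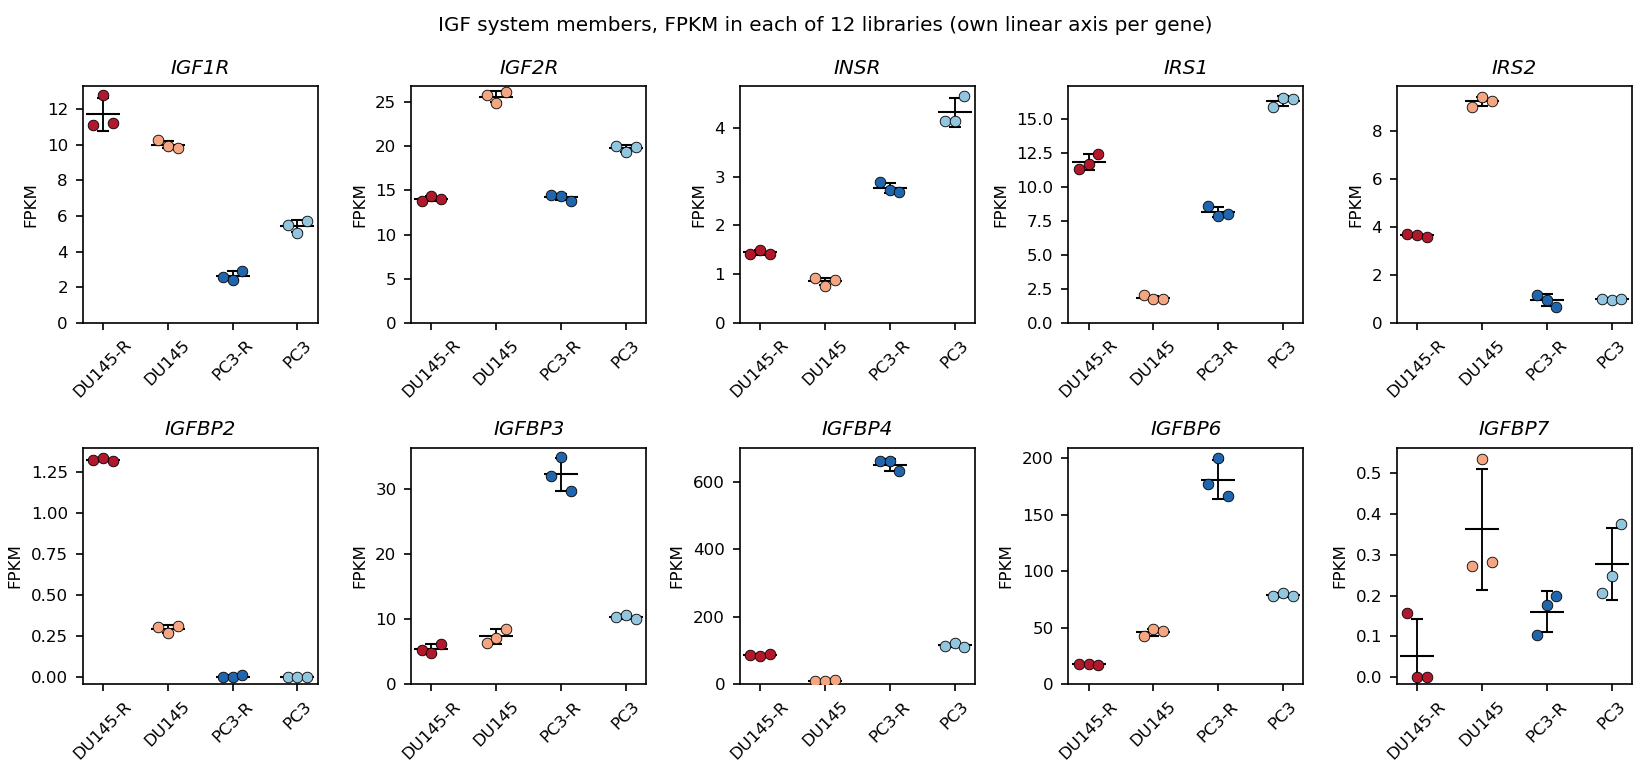
Level in FPKM (linear axis, a scale of its own for each gene) of the 10 members in DU145-R, parental DU145, PC3-R and parental PC3, where points are libraries, horizontal lines are group means and whiskers are 1 SD (n = 3). IGFBP4 is higher in both resistant sublines than in their parents, reaching 663 FPKM in PC3-R, while IRS1 is higher in DU145-R and lower in PC3-R.

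**Figure D2:**
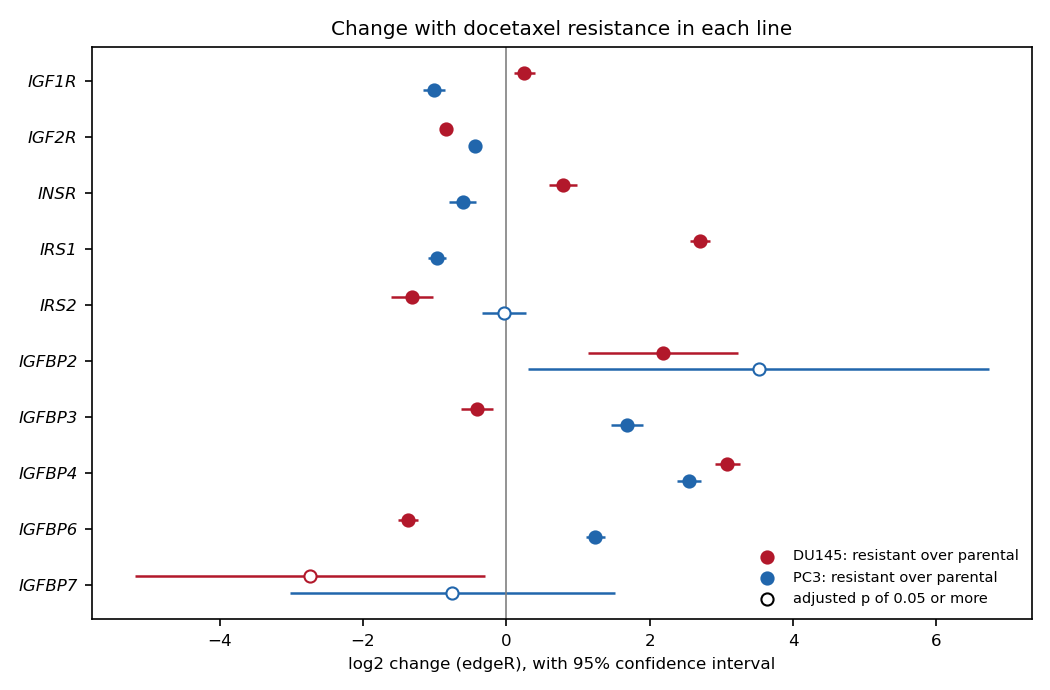
Fitted log2 difference, resistant over parental, of the 10 members (vertical axis) in DU145 (red) and PC3 (blue), with 95% confidence intervals, where open points did not pass. IGFBP4 lies to the positive side in both lines at 3.08 and 2.55, IGF2R to the negative side at -0.84 and -0.43, and the intervals of IGFBP2 and IGFBP7 are the widest; the PC3 value of IGFBP2 is fitted against 0 counts and is no bound.

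Among the receptors, IGF1R (ENSG00000140443, GRCh38 chromosome 15, 98648539 to 98964530, plus strand), the main receptor of IGF1, had 11.1, 12.8 and 11.3 FPKM in DU145-R, against 10.3, 9.95 and 9.85 FPKM in parental DU145. The FPKM are scaled to 1 length per gene, from 1.35 kb for IGFBP6 to 22.6 kb for IGF2R among the members. Levels can be compared between genes only as far as that length matches the transcripts present, which was not tested. All 3 DU145-R libraries were above all 3 parental ones, by a small margin, and the log2 difference was 0.25 ± 0.07 (SE, adjusted p = 0.00896). The call rested on DU145-R replicate 2: without it the difference was 0.18 with an adjusted p of 0.0578. In PC3-R, IGF1R had 2.58, 2.42 and 2.91 FPKM, against 5.50, 5.07 and 5.74 FPKM in parental PC3. It was lower in every PC3-R library, 2.01-fold, at a log2 difference of -1.0 ± 0.07 (adjusted p = 1.06e-08).

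INSR (ENSG00000171105, chromosome 19, 7112255 to 7294414, minus strand), the insulin receptor, had 1.41, 1.5 and 1.42 FPKM in DU145-R, against 0.912, 0.757 and 0.868 FPKM in parental DU145. In PC3-R it had 2.89, 2.73 and 2.69 FPKM, against 4.16, 4.16 and 4.67 FPKM in parental PC3. The groups did not overlap in either line, with INSR higher in DU145-R (log2 0.80 ± 0.09, adjusted p = 3.13e-06) and lower in PC3-R (log2 -0.60 ± 0.09, adjusted p = 3.03e-05). Per length, INSR stood at 0.123 ± 0.005 of the IGF1R level in DU145-R and 0.0844 ± 0.0072 of it in parental DU145 (SD, n = 3 libraries each). The ratio was 1.06 ± 0.11 in PC3-R and 0.796 ± 0.036 in parental PC3, so that the 2 receptor RNAs were close to equal in the PC3 pair, while IGF1R was the more abundant one in the DU145 pair.

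IGF2R (ENSG00000197081, chromosome 6, 159969082 to 160113507, plus strand), the receptor that clears IGF2, had 13.8, 14.4 and 14.0 FPKM in DU145-R, against 25.8, 25.0 and 26.2 FPKM in parental DU145. Its values in PC3-R were 14.5, 14.4 and 13.9 FPKM, against 20.0, 19.4 and 19.9 FPKM in parental PC3. IGF2R was lower in all 6 resistant libraries than in any library of its own parental line. The log2 difference was -0.84 ± 0.03 in DU145 (adjusted p = 2.23e-11) and -0.43 ± 0.03 in PC3 (adjusted p = 3.13e-08), the smallest standard errors among the members. The parental lines differed, with 19.8 ± 0.3 FPKM in PC3 and 25.6 ± 0.6 FPKM in DU145, but in FPKM PC3-R and DU145-R overlapped at 14.2 ± 0.3 and 14.1 ± 0.3 FPKM (log2 difference 0.08 ± 0.03, adjusted p = 0.0553, SD and n = 3 for the levels). Without PC3-R replicate 3 the adjusted p of that last difference was 0.0332.

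IRS1 (ENSG00000169047, chromosome 2, 226731317 to 226799759, minus strand), a docking protein of IGF1R and INSR, had 11.3, 11.6 and 12.4 FPKM in DU145-R, against 1.99, 1.75 and 1.76 FPKM in parental DU145. Every DU145-R library was far above every parental one, 6.53-fold overall (log2 2.71 ± 0.07, adjusted p = 8.23e-14). In PC3-R it had 8.54, 7.85 and 7.98 FPKM, against 15.8, 16.5 and 16.4 FPKM in parental PC3. Here IRS1 was lower in every resistant library, 1.95-fold (log2 -0.96 ± 0.06, adjusted p = 2.33e-09).

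IRS2 (ENSG00000185950, chromosome 13, 109752695 to 109786583, minus strand), the related docking protein, had 3.71, 3.65 and 3.59 FPKM in DU145-R, against 9.02, 9.43 and 9.27 FPKM in parental DU145. It was lower in each DU145-R library, 2.49-fold (log2 -1.31 ± 0.14, adjusted p = 1.35e-06). In PC3-R it had 1.17, 0.953 and 0.658 FPKM, against 0.985, 0.934 and 0.997 FPKM in parental PC3. The PC3-R libraries lay on both sides of the parental ones, and the log2 difference of -0.03 had a 95% confidence interval of -0.34 to 0.28 (adjusted p = 0.906). The ratio of IRS1 to IRS2, both in FPKM, was 3.23 ± 0.21 in DU145-R and 0.199 ± 0.019 in parental DU145, so the more abundant adaptor RNA was IRS1 in DU145-R and IRS2 in parental DU145. In the PC3 pair IRS1 was the more abundant one in every library, with ratios of 9.23 ± 2.55 in PC3-R and 16.8 ± 0.8 in parental PC3 (SD, n = 3 each).

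IGFBP4 (ENSG00000141753, chromosome 17, 40443450 to 40457725, plus strand), a binding protein that blocks IGF action until PAPPA-type proteases cut it, had 86.2, 83.0 and 88.2 FPKM in DU145-R, against 9.34, 9.45 and 12.2 FPKM in parental DU145. Its PC3-R values were 663, 661 and 631 FPKM, against 113, 120.5 and 110.3 FPKM in parental PC3. All 6 resistant libraries were far above those of their own parental line. IGFBP4 was 8.46-fold higher in DU145-R (log2 3.08 ± 0.08, adjusted p = 2.99e-12) and 5.85-fold higher in PC3-R (log2 2.55 ± 0.08, adjusted p = 1.14e-11). By mean FPKM it stood above 98.9% of genes with a value above 0 in DU145-R and 85.0% in parental DU145, and above 99.9% in PC3-R and 99.2% in parental PC3.

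IGFBP6 (ENSG00000167779, chromosome 12, 53097436 to 53102345, plus strand), a binding protein with a preference for IGF2, had 17.5, 17.7 and 16.8 FPKM in DU145-R, against 42.4, 48.4 and 46.5 FPKM in parental DU145. In PC3-R it had 177, 200.2 and 166 FPKM, against 77.5, 80.4 and 78.4 FPKM in parental PC3. IGFBP6 was therefore lower in every DU145-R library (2.59-fold, log2 -1.37 ± 0.06, adjusted p = 1.29e-10) and higher in every PC3-R library (2.36-fold, log2 1.24 ± 0.06, adjusted p = 2.15e-10).

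IGFBP3 (ENSG00000146674, chromosome 7, 45912245 to 45921274, minus strand), the main carrier of IGFs in blood, had 5.29, 4.72 and 6.17 FPKM in DU145-R, against 6.29, 7.13 and 8.52 FPKM in parental DU145. The highest DU145-R library came close to the lowest parental one, and the log2 difference was -0.41 ± 0.10 (adjusted p = 0.00544). In PC3-R it had 32.0, 34.8 and 29.7 FPKM, against 10.3, 10.6 and 9.97 FPKM in parental PC3. The PC3 groups were widely separated, with IGFBP3 3.21-fold higher in PC3-R (log2 1.68 ± 0.10, adjusted p = 5.81e-09).

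IGFBP2 (ENSG00000115457, chromosome 2, 216632828 to 216664436, plus strand), a binding protein that also attaches to integrins, had 1.33, 1.34 and 1.32 FPKM in DU145-R, against 0.303, 0.270 and 0.314 FPKM in parental DU145. It was higher in every DU145-R library (4.56-fold, log2 2.19 ± 0.48, adjusted p = 0.0023). In the PC3 pair it was at the limit of detection, with 0, 0 and 4 counts in PC3-R against 0 counts in all 3 parental libraries, and no fold is given there (adjusted p = 0.0734). That value depended on single libraries: the adjusted p was 0.0314 without PC3-R replicate 1 and 0.0329 without PC3-R replicate 2.

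IGFBP7 (ENSG00000163453, chromosome 4, 57030773 to 57110385, minus strand), a low-affinity IGF binder found in the extracellular matrix, was the least abundant member beside IGFBP2. It had 0.157, 0 and 0 FPKM in DU145-R, against 0.274, 0.535 and 0.282 FPKM in parental DU145. The first of these DU145-R libraries held all 20 counts of its group. The log2 difference was -2.74 with a 95% confidence interval of -5.18 to -0.30, and it did not pass (adjusted p = 0.0717), while it did without DU145-R replicate 1 (adjusted p = 0.000221, the other 2 DU145-R libraries being at 0) and with DESeq2 (adjusted p = 0.0281). With limma IGFBP7 passed too, on log2(FPKM + 1) (adjusted p = 0.00846) and on log2(FPKM + 0.1) (adjusted p = 0.005335). In PC3-R it had 0.104, 0.177 and 0.200 FPKM, against 0.207, 0.249 and 0.376 FPKM in parental PC3 (log2 -0.75, 95% confidence interval -3.01 to 1.51, adjusted p = 0.629). IGFBP7 overlaps POLR2B, an RNA polymerase subunit gene on the opposite strand with 9365 to 28950 counts per library. The library protocol keeps strand, but whether counting used it is not given in the sources used here, so the IGFBP7 values are uncertain. Genes overlapping IGF1R, IRS2 and IGF2R had at most 290 counts in any library, and no gene with counts overlapped the other 6 members.

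The 5 member binding proteins were summed per library to describe which of them made up the total. Their FPKM summed to 109.9 ± 2.9 in DU145-R and 64.1 ± 4.8 in parental DU145, and to 865 ± 35 in PC3-R and 204 ± 7 in parental PC3 (SD, n = 3 libraries each). IGFBP4 took 78.0% ± 0.3 of the sum in DU145-R and 16.1% ± 1.8 in parental DU145. IGFBP6 took 15.8% ± 0.8 in DU145-R and 71.5% ± 2.6 in parental DU145, so the leading RNA of the 5 was IGFBP4 in the resistant subline and IGFBP6 in its parent. In PC3-R, IGFBP4 took 75.4% ± 1.4, against 56.2% ± 0.7 in parental PC3, and IGFBP6 took 20.9% ± 1.3 in PC3-R, against 38.7% ± 0.7 in parental PC3. The IGFBP3 share was 4.90% ± 0.54 in DU145-R and 11.4% ± 1.0 in parental DU145, and 3.72% ± 0.15 in PC3-R and 5.05% ± 0.08 in parental PC3. IGFBP3 therefore took a smaller share in PC3-R although its own level there was higher. These shares are descriptions with no test, they depend on the length used for each gene, and they leave out binding proteins that are not members. IGFBP5, left out, had 8.76 ± 0.89 FPKM in parental PC3 and 0.087 ± 0.114 FPKM in PC3-R. IGFBPL1, an IGFBP-like protein also left out, had 8.67 ± 0.50 FPKM in parental DU145 and 9.84 ± 0.26 FPKM in DU145-R.

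**Figure D3:**
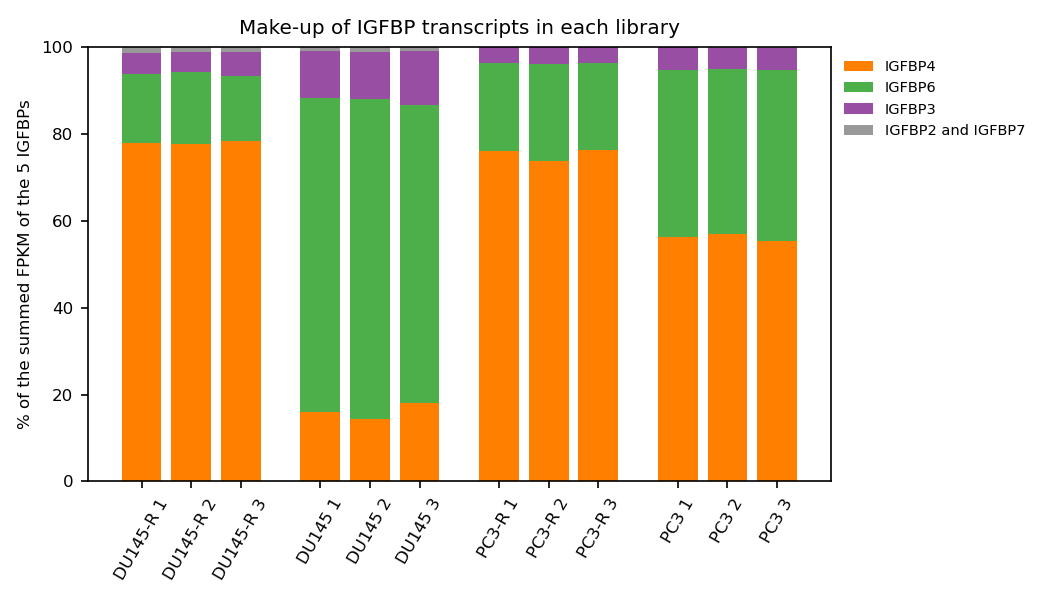
Share of the summed FPKM of the 5 member IGFBPs taken by each, as a percent, in each of the 12 libraries. IGFBP4 fills 78.0% on average in DU145-R and 16.1% in parental DU145, and 75.4% in PC3-R and 56.2% in parental PC3.

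The parental lines differed in 9 of the 10 members, where 60.3% of all genes did, with 5 members higher in PC3 (30.9% of all genes) and 4 lower (29.5%). These line comparisons share libraries with the comparisons above. IGFBP4 was 11.5-fold (log2 3.52), IRS1 9.15-fold (log2 3.19) and INSR 5.28-fold (log2 2.40) higher in parental PC3 than in parental DU145. IGFBP6 was 1.78-fold and IGFBP3 1.45-fold higher in parental PC3. IRS2 was 9.21-fold (log2 -3.20), IGF1R 1.79-fold and IGF2R 1.26-fold lower in parental PC3, with an adjusted p of at most 0.000368 for each of these 8 differences. IGFBP2 had 0 counts in parental PC3 and 274 in parental DU145, and was at least 89.1-fold lower there, taking 3 counts over the group as the limit that 0 allows. Such limits cover counting error only: in genes averaging 5 to 10 counts the variance between libraries was 7.63 to 8.43 times the mean, so the true bound may be lower.

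Between the resistant sublines, 8 members differed, where 59.8% of all genes did, with 4 higher in PC3-R (30.6%) and 4 lower (29.1%). IGFBP6 was 10.9-fold, IGFBP4 7.92-fold, IGFBP3 6.22-fold and INSR 2.00-fold higher in PC3-R than in DU145-R. IGF1R was 4.26-fold, IRS2 3.78-fold and IRS1 1.39-fold lower in PC3-R, with an adjusted p of at most 3.99e-06 for each of these 7 differences. IGFBP2 was 312-fold lower in PC3-R by summed counts, with a counting interval of 121 to 1145, but all 4 PC3-R counts were in replicate 3 and the other libraries of that group were at 0. IRS1 was thus higher in PC3 than in DU145 among parents, and lower in PC3-R than in DU145-R.

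Over the 4 groups, IGF1R had the order DU145-R, DU145, PC3, PC3-R by mean FPKM, with no overlap in FPKM between neighbours. INSR ran from PC3 through PC3-R and DU145-R to DU145, and IRS1 from PC3 through DU145-R and PC3-R to DU145, again with no overlap. IGFBP4 ran from PC3-R through PC3 and DU145-R to DU145, where the DU145-R mean of 85.8 FPKM came within 1.34-fold of the 114.5 FPKM of parental PC3. IGFBP3 and IGFBP6 both had the order PC3-R, PC3, DU145, DU145-R with no overlap. IGF2R ran DU145, PC3, PC3-R, DU145-R, and its last pair overlapped. For IRS2 the order was DU145, DU145-R, PC3, PC3-R, and the 2 PC3 groups overlapped. The PC3 groups also overlapped for IGFBP2, which was highest in DU145-R. For IGFBP7, whose order was DU145, PC3, PC3-R, DU145-R, the first and the last pair of neighbours overlapped.

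The size of the difference with resistance was compared between the lines as an interaction, the PC3 log2 difference minus the DU145 one. It passed for 8 of the 10 members, 4 positive and 4 negative, where 42.1% of all genes passed (22.1% positive, 20.0% negative). IRS1 had the interaction farthest from 0, at -3.67 (adjusted p = 7.15e-14), followed by IGFBP6 at 2.61 and IGFBP3 at 2.10. INSR was at -1.40, IRS2 at 1.28 and IGF1R at -1.25. IGFBP4, higher in both sublines, differed in size by -0.53 (adjusted p = 0.000894), and IGF2R, lower in both, by 0.41 (adjusted p = 3.62e-06). The interactions of IGFBP2 (1.33, 95% confidence interval -0.94 to 3.60, adjusted p = 0.356) and IGFBP7 (1.99, adjusted p = 0.338) did not pass. That of IGFBP2 passed with the opposite sign with limma, at -0.84 on log2(FPKM + 1) (adjusted p = 5.49e-06) and at -1.80 on log2(FPKM + 0.1) (adjusted p = 0.000242). That of IGFBP7 passed without DU145-R replicate 1 (adjusted p = 0.00102), when both remaining DU145-R libraries were at 0.

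The rest of the pathway was described from gene lists, in CPM. Of the ligands, IGF2 had 0.628 ± 0.512 CPM in DU145-R and 0.402 ± 0.198 CPM in parental DU145 (adjusted p = 0.391), and 5.34 ± 0.86 CPM in PC3-R and 1.77 ± 0.74 CPM in parental PC3 (SD, n = 3 each). The PC3 difference passed (log2 1.59 ± 0.51, adjusted p = 0.0179) but not without PC3-R replicate 2 (0.0544), parental PC3 replicate 1 (0.0596) or parental PC3 replicate 3 (0.0747). IGF1 had 2 counts in all 12 libraries together and was not tested, and INS was not found by symbol among the genes listed.

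Of the 10 other binding proteins and regulators of IGFBP cleavage, 2 were higher (18.9% of all genes were), 2 lower (20.7%) and 6 did not pass in DU145-R, at a median log2 difference of 0.20 against 0 over all genes. In PC3-R, 3 were higher (22.4% of all genes), 2 lower (21.6%) and 5 did not pass, at a median of 0.00. STC1, stanniocalcin-1, an inhibitor of the proteases that cut IGFBP4, had 52.4, 61.1 and 53.6 CPM in DU145-R, against 0.563, 0.556 and 2.18 CPM in parental DU145. It had 187, 188 and 161 CPM in PC3-R, against 21.7, 23.5 and 19.2 CPM in parental PC3. STC1 was therefore higher in all 6 resistant libraries, 51.0-fold in DU145-R (log2 5.67 ± 0.38, adjusted p = 1.8e-06) and 8.34-fold in PC3-R (log2 3.06 ± 0.29, adjusted p = 1.95e-05). The DU145 value depended on parental DU145 replicate 3, without which it was log2 6.63. The related STC2 was lower in both, at log2 -0.19 ± 0.05 in DU145 and -1.57 ± 0.05 in PC3.

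PAPPA2, a protease that cuts IGFBP3 and IGFBP5, had 38.7 ± 3.6 CPM in DU145-R and 6.32 ± 0.12 CPM in parental DU145 (log2 2.61 ± 0.25). It was near 0 in the PC3 pair, at 0.224 ± 0.111 CPM in PC3-R and 0.0208 ± 0.0360 CPM in parental PC3, and its call there (adjusted p = 0.000524) did not hold with limma on FPKM or with the PC3 libraries fitted alone. PAPPA, which cuts IGFBP4, did not pass in either line, with log2 differences of 0.71 in DU145 (adjusted p = 0.155) and 0.08 in PC3 (adjusted p = 0.909). HTRA1, a secreted protease, was lower in DU145-R (log2 -1.09 ± 0.08). IGFBP5 had 0, 0.302 and 1.43 CPM in PC3-R, against 53.6, 63.6 and 53.6 CPM in parental PC3. It was lower in every PC3-R library (log2 -6.59 ± 1.06, adjusted p = 0.000818), and the fitted value was -8.58 without PC3-R replicate 3, which held most of the group's CPM. In DU145 it had 3.34 ± 1.09 CPM in DU145-R and 2.92 ± 2.87 CPM in parental DU145 (adjusted p = 0.916).

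Of 14 other adaptors of the receptors, 13 could be tested. In DU145-R, 2 were higher (18.9% of all genes), 7 lower (20.7%) and 4 did not pass (median log2 -0.27). In PC3-R, 5 were higher (22.4%), 5 lower (21.6%) and 3 did not pass (median -0.12). GAB2, a docking protein that binds PI3-kinase, had 11.6 ± 1.4 CPM in DU145-R and 39.9 ± 2.0 CPM in parental DU145 (log2 -1.78 ± 0.12), and SH2B2 was lower there too (log2 -0.85 ± 0.18). SOCS3, an inhibitor of cytokine receptors that also binds IRS proteins, was higher in both, with 16.5 ± 0.6 CPM in DU145-R and 8.14 ± 0.61 CPM in parental DU145, and 93.1 ± 3.8 CPM in PC3-R and 20.3 ± 1.6 CPM in parental PC3. SOCS1, of the same family, was higher in PC3-R (log2 2.48 ± 0.46), although it overlaps RMI2, which had more counts. PTPN1, a phosphatase that acts on the receptors, was also higher in PC3-R (log2 0.75 ± 0.06).

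The PI3K, AKT and mTOR list held 22 genes, of which 3 were higher (18.9% of all genes), 13 lower (20.7%) and 6 did not pass in DU145-R (median log2 -0.24). In PC3-R, 8 were higher (22.4%), 8 lower (21.6%) and 6 did not pass (median 0.03). PIK3R3, a regulatory subunit of PI3-kinase, had 12.7 ± 1.1 CPM in DU145-R and 29.6 ± 2.7 CPM in parental DU145 (log2 -1.22 ± 0.09). PHLPP2, a phosphatase of AKT, had 35.8 ± 2.0 CPM in PC3-R and 12.5 ± 0.2 CPM in parental PC3 (log2 1.52 ± 0.11), and INPPL1, a lipid phosphatase, was lower in PC3-R (log2 -1.03 ± 0.06). PIK3CD, a catalytic subunit, was higher by log2 0.999 ± 0.129 in DU145-R and by log2 0.98 ± 0.12 in PC3-R, but it overlaps CLSTN1, which had more counts.

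FOXO factors are held out of the nucleus by AKT, and the list of FOXO genes and targets held 12 genes. In PC3-R none was higher (22.4% of all genes), 11 were lower (21.6%) and 1 did not pass, at a median log2 difference of -1.21 against 0 over all genes. CCNG2, a cyclin that restrains division, had 16.2 ± 1.2 CPM in PC3-R and 82.8 ± 2.7 CPM in parental PC3 (log2 -2.35 ± 0.17), and BCL6, a transcriptional repressor, had 28.1 ± 1.8 CPM in PC3-R and 129 ± 7 CPM in parental PC3 (log2 -2.20 ± 0.09). KLF15 had no count in PC3-R and was at least 15.3-fold lower there, taking 3 counts over the group as the limit. Its adjusted p of 0.0287 did not hold with DESeq2 (0.0705), with the replicate number as a block (0.0853) or with no filter (0.05045). Nor did it hold without parental PC3 replicate 1 or 3, or without any 1 of the PC3-R replicates (0.0587 to 0.0658). It ranged from 0.0159 to 0.0853 over its alternatives. In DU145-R, 4 genes were higher (18.9% of all genes), 3 lower (20.7%) and 5 did not pass, at a median of -0.04. TXNIP, an inhibitor of thioredoxin, had 8.21 ± 0.83 CPM in DU145-R and 1.89 ± 0.69 CPM in parental DU145 (log2 2.12 ± 0.18). FBXO32, a ubiquitin ligase subunit, and SESN3, an mTOR inhibitor, were higher there too, at log2 2.10 ± 0.22 and 1.53 ± 0.14.

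Of the 3 proteins that bind IGF2 mRNA, 2 were lower and 1 did not pass in each line, where 20.7% of all genes were lower in DU145-R and 21.6% in PC3-R. IGF2BP3 (log2 -1.20 ± 0.11) and IGF2BP2 (log2 -0.40 ± 0.04) were lower in DU145-R, and IGF2BP1 (log2 -2.25 ± 0.48) and IGF2BP2 (log2 -0.56 ± 0.04) in PC3-R. IGF2BP3, with 26211 counts over the 12 libraries, overlaps MALSU1 and other genes, of which the largest had 19961 counts.

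**Figure D4:**
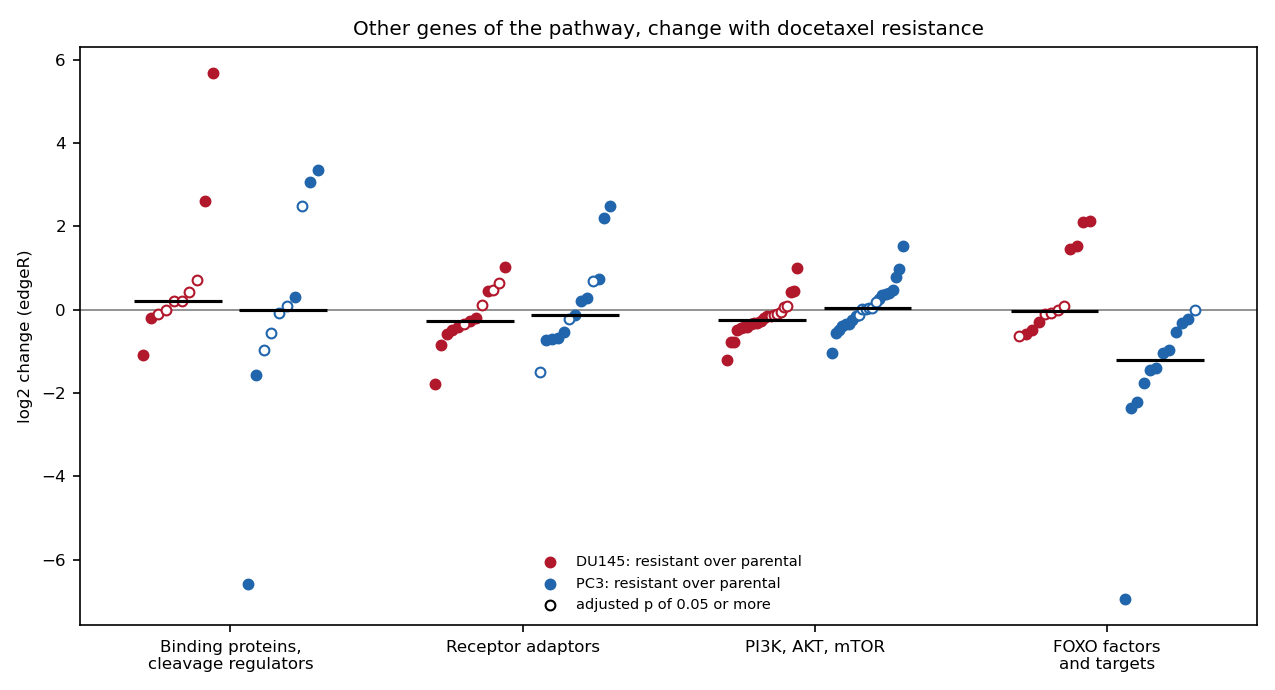
Fitted log2 difference, resistant over parental, of the genes in 4 pathway lists (horizontal axis), in DU145 (red) and PC3 (blue), where points are genes, open points did not pass and black lines are list medians. STC1 is the top red point at 5.67, IGFBP5 the lowest blue point of the binding proteins at -6.59, and the PC3 median of the FOXO list lies at -1.21; the lowest FOXO point is KLF15, whose fitted value is no bound.

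The parental lines also differed in these lists, the differences below being PC3 over DU145. Of the FOXO list, 10 of 12 genes were higher in parental PC3 (30.9% of all genes) and 1 was lower (29.5%), at a median of 2.27, with TXNIP at 91.96 ± 7.3 CPM in PC3 and 1.89 ± 0.69 CPM in DU145. IGFBPL1, an IGFBP-like protein, had 0.0944 ± 0.1253 CPM in parental PC3 and 30.1 ± 2.0 CPM in parental DU145. The adaptors GRB14 (log2 -4.73 ± 0.55), DOK1 (log2 -3.18 ± 0.32) and SHC1 (log2 -2.17 ± 0.04) were lower in parental PC3. DOK1, with 2870 counts over the 12 libraries, overlaps LOXL3, which had 1711.

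For each member, the gene whose log2(CPM + 1) followed it most closely over the 12 libraries was taken from 12202 genes with a mean of at least 5 CPM. These 12 libraries fall into 4 groups, so the correlations describe group levels. JAG2, a Notch ligand, was nearest to IGF1R (Pearson r = 0.994), DAG1, dystroglycan, to IGF2R (0.996) and TRIM2, a ubiquitin ligase, to INSR (0.997). DCBLD2 was nearest to IRS1 (0.991) and CFAP126 to IRS2 (0.995). Among the binding proteins, GLIPR1 was nearest to IGFBP4 (0.995), NAV2 to IGFBP6 (0.995), AP1M1 to IGFBP3 (0.996), ALDH3B1 to IGFBP2 (0.996) and PLPP5 to IGFBP7 (0.888). TRIM2 had 5.40 CPM in DU145-R and 0.509 CPM in parental DU145, and 38.1 CPM in PC3-R and 159 CPM in parental PC3.

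Across the series, 25695 to 26401 genes had a count in a library. PC3-R replicate 1 stood apart, and its counts differed from those of PC3-R replicates 2 and 3 by a mean chi-square statistic over genes of 33.8 and 33.9, where the other 10 pairs within groups had 13.5 to 19.2. Without it, the 7 members called in PC3 had log2 differences of -1.01 (IGF1R), -0.47 (IGF2R), -0.66 (INSR), -1.02 (IRS1), 1.67 (IGFBP3), 2.51 (IGFBP4) and 1.23 (IGFBP6), and each passed. IRS2 was at -0.26 without it (adjusted p = 0.107). The labels were checked with ABCB1, a drug efflux pump, at 70.9 ± 6.9 CPM in DU145-R and 0.707 ± 0.471 CPM in parental DU145, and at 0.0372 ± 0.0643 CPM in PC3-R and 0.121 ± 0.106 CPM in parental PC3. Being near 0 in both PC3 groups, ABCB1 cannot check which PC3 libraries are the resistant ones. CTNNA1, which PC3 is known to lack, had 2.23 ± 0.08 CPM in PC3-R and 2.92 ± 0.55 CPM in parental PC3, against 383 ± 10 CPM in DU145-R and 519 ± 10 CPM in parental DU145. All 5 epithelial markers were detected, with summed levels of 1530 to 1570 CPM in DU145-R and 896 to 934 CPM in parental DU145, and 551 to 585 CPM in PC3-R and 1030 to 1040 CPM in parental PC3. Against these sums, KRT19 was lower in DU145-R, at 172 ± 8 CPM and 213 ± 3 CPM in parental DU145. CDH1 was low except in DU145-R (74.3 CPM), at 3.81 CPM in parental DU145, 1.03 CPM in PC3-R and 9.94 CPM in parental PC3. Summed over 5 leukocyte markers the levels were 19.8 to 38.7 CPM in DU145-R and 16 to 19.5 CPM in parental DU145, and 75.1 to 86.9 CPM in PC3-R and 44.9 to 59.9 CPM in parental PC3. CD68 made up most of this, and PTPRC and CD3E were each under 0.2 CPM on average in every group. Summed over 6 fibroblast and smooth muscle markers, the levels were 5.38 to 9.86 CPM in DU145-R and 22.6 to 36.7 CPM in parental DU145. In the PC3 pair these sums were 11.3 to 18.2 CPM in PC3-R and 109 to 114 CPM in parental PC3. Most of the parental PC3 sum was COL1A1, at 103 ± 6 CPM there and 11.5 ± 1.5 CPM in PC3-R. LUM, PDGFRB and ACTA2 each averaged at most 1.131 CPM in any group. Over 4 endothelial markers the sums were 0.422 to 0.986 CPM in DU145-R and 0.246 to 0.766 CPM in parental DU145, and 53.7 to 76.6 CPM in PC3-R and 177 to 232 CPM in parental PC3. In the PC3 pair most of this was KDR, at 40.8 ± 8.9 CPM in PC3-R and 178 ± 30 CPM in parental PC3. PECAM1 went the other way, at 27.3 ± 4.0 CPM in PC3-R and 18.3 ± 0.8 CPM in parental PC3. CDH5 averaged at most 0.118 CPM in any group. The part of these marker sets in the members' differences was not tested. In bulk RNA, fewer cells with an RNA and less of it per cell cannot be told apart.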

How the data were processed

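Poly(A)-selected, strand-preserving RNA-seq libraries were sequenced per the labels' protocols. The authors deposited raw counts and FPKM for every gene of each library, and each FPKM was its count times a factor fixed per gene and library, within 0.1% for all 11651 genes checked. Trimming, alignment and assembly tools listed in the submitters' processing notes are HISAT2 2.0.4, cutadapt 1.9 and StringTie 1.3.4d, beside edgeR and DESeq2. The notes name hg18, but the deposited gene coordinates are those of GRCh38. Counts were tested with edgeR 4.0.16 in R 4.3.3 (filterByExpr, TMM, robust quasi-likelihood F test, all 12 libraries in 4 groups, 8 residual degrees of freedom), with Benjamini-Hochberg adjustment over 24128 genes. The fit was tested on simulated data. Alternatives were DESeq2 1.42.0, limma 3.58.1 on log2(FPKM + 1) and log2(FPKM + 0.1), other scalings, no filter, a replicate block, only the groups compared (not for the interaction), and leaving out each library. The members and gene lists were chosen with earlier results of these data known. Named genes are all members, ABCB1, the gene nearest in pattern to each member, the ligands and, for each pathway list, up to 3 called genes with the largest absolute log2 difference in a comparison; those of the comparison between resistant sublines and of the interaction are not all printed, and some named genes are not reported here. PAPPA, STC2, IGF2BP2 and values that did not pass were added after they were seen. The fitted 95% confidence limits include the spread between libraries, whereas the counting interval of IGFBP2 and the limits for counts of 0 cover counting error only.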

Additional observations from a re-analysis of the deposited data

Results flagged for a closer look

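The difference between resistant and parental cells was not the same in both lines for 8 of the 10 members, by the interaction test in edgeR (PC3 log2 difference minus DU145 log2 difference, Benjamini-Hochberg adjusted over all genes). For IRS1 the interaction was -3.67, for INSR -1.40 and for IGF1R -1.25, each RNA being lower in PC3-R and higher in DU145-R. For IGFBP6 it was 2.61 and for IGFBP3 2.10, both higher in PC3-R and lower in DU145-R. For IRS2 it was 1.28, with the RNA lower in DU145-R and a PC3 difference that did not pass. IGFBP4 (-0.53) and IGF2R (0.41) moved one way in both lines, and the shift was smaller in PC3. Of all genes, 42.1% passed the same test.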

How the results depend on the processing

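Of 990 recomputed member values, 973 kept their direction and their side of the threshold, 9 newly passed, 1 no longer passed and 7 did not keep their sign. Of these 7, 3 were the IGFBP2 interaction, 1.33 in edgeR, which was -0.84 with limma on log2(FPKM + 1), -1.80 with limma on log2(FPKM + 0.1) and, leaving out 1 library at a time, -2.19 to 1.86, the lowest without PC3-R replicate 3; the cause was not tested. Without that library IGFBP2 had no count in either PC3 group, and its fitted difference there ranged from 0 to 4.04 as libraries were left out. The other 3 passed in neither fit: IRS2 in PC3 ranged from -0.26 to 0.17, the highest without PC3-R replicate 3, IGFBP7 between parents from -0.63 to 0.046, the highest without parental DU145 replicate 2, and IGF2R between resistant sublines was -0.025 with upper-quartile scaling. Of 896 pathway gene values, 876 kept both, 19 no longer passed and 1 changed sign, IGF2 in DU145, which passed in neither fit and ranged from -0.26 without DU145-R replicate 3 to 1.12 without parental DU145 replicate 3. The labels number the replicates alike in each group and do not say whether same-numbered libraries were prepared together. Same-numbered libraries correlated at -0.11 to 0.08 in their deviations from the group means. These values show no large effect shared by a replicate number, but cannot exclude that the samples were paired. With the replicate number as a block, 9155 genes were called in DU145, 10219 in PC3, 14093 between parents, 13932 between resistant sublines and 9759 as interactions, against 9554, 10615, 14561, 14418 and 10150 without it, and members called stayed at 9, 7, 9, 8 and 8. Upper-quartile scaling moved the median of all genes between resistant sublines to -0.12, against -0.01. Log2(FPKM + 1) understates low genes: INSR in DU145 was 0.41, against 0.80 in edgeR. IGFBP2 in PC3 and IGFBP7 were limited by their counts.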
